A study of Schizosaccharomyces pombe with 29 samples.

Results

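The libraries described here come from fission yeast (Schizosaccharomyces pombe) that overexpresses rnhA, the Escherichia coli gene for RNase H (pRnhA, 3 libraries), and from wild-type cells (WT, 3 libraries). They are 6 of the 29 samples of the series and 6 of its 8 total RNA libraries, and were chosen by their labels. All rows of the deposited table with a mean of 1 or more were tested, which is 6456 of 7016. These rows are called genes here, whether or not they code for protein. The 2 remaining RNA libraries are of the strain rnh1Δrnh201Δ, which lacks the cell's own RNase H genes rnh1 and rnh201. They share the estimate of spread in the fit, and their values are given where they stand beside a result. Per the labels' protocols, all cells grew in the minimal medium PMG and were moved to 34 °C for 3 hours before RNA was taken with hot phenol. Libraries were made with a directional kit and read over 50 bases from one end. The labels name rnhA overexpression without the plasmid, the promoter or the strain, and do not say whether WT cells carried an empty plasmid. They also do not say whether replicates are separate cultures. The p-values measure the spread between these libraries, which may be technical between replicates 1 and 2 of pRnhA or of WT.

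RNase H cuts the RNA strand of an RNA-DNA hybrid. Such hybrids form when a new transcript pairs again with its template and displaces the other DNA strand, a structure called an R-loop. They are known at strongly transcribed genes, among them ribosomal and transfer RNA genes. RNase H1, encoded by rnh1, and RNase H2, whose catalytic subunit is encoded by rnh201, remove them in normal cells. The bacterial enzyme is widely used as a tool to lower hybrid levels.

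The yeast RNase H genes themselves were not called. The normalized count of rnh1 was 300, 300 and 320 in pRnhA, against 320, 300 and 290 in WT (log2 fold change 0.02, SE 0.15, limma adjusted p 0.96). That of rnh201 was 410, 460 and 440 in pRnhA, against 390, 360 and 300 in WT (0.33, SE 0.18, limma adjusted p 0.25). The libraries of the 2 groups overlapped for rnh1 and did not for rnh201. No row of the table carries the name rnhA, so its level was not checked.

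Library totals of normalized counts ran from 8392168 to 8513720 in pRnhA and from 8933949 to 9455805 in WT, and these ranges did not overlap. The raw depth is unknown. Mating-type transcripts put pRnhA replicate 3 and WT replicate 3 among the P type and the other 4 libraries among the M type, so mating type is balanced between the groups. WT replicate 1 stood between the other WT libraries and pRnhA for many gene groups below, and its values are given beside them.

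Against WT, limma called 1306 of 6456 genes (20.2%) in pRnhA at an adjusted p of 0.05. Of these 573 were higher (8.88% of genes tested) and 733 lower (11.4%). Most changes were small: the median size of a called change was 0.45 on the log2 scale, and 49 higher and 118 lower genes changed by 1 or more. Protein-coding genes were called in 22.5% of 5058, long noncoding RNAs in 11% of 637, and antisense transcripts in 12.1% of 597. Among protein-coding genes the share was 2.17% below a mean of 20 and 27.1% at a mean of 1000 or more. In the latter bin 188 of 1955 were higher and 342 lower, and at 200 to 1000 it was 285 and 267 of 2417. The shares of all genes given beside lists below include low and noncoding rows. They are not matched to the level of a list's members, so a list share slightly above them is not a raised share. The number of calls rested on single libraries. It was 408, 212 and 634 without pRnhA replicates 1, 2 and 3, 2173, 396 and 781 without WT replicates 1, 2 and 3, and 921 and 917 without rnh1Δrnh201Δ replicates 1 and 2. In all 8 of these fits 203 genes were called as well, 65 higher (1.01% of genes tested) and 138 lower (2.14%), and below a gene is said to hold in all 8 fits when it is among them. Called or not, 1010 genes (15.6%) had every pRnhA library above every WT library, and 1168 (18.1%) had every pRnhA library below. This lack of overlap was a condition for naming the genes of largest change.

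Direction depends on the scaling. Under the authors' scaling 43.9% of calls were higher, and all genes together had a median of 0.002. When libraries were set to equal totals the median was 0.11, and 77.1% of 1634 calls were higher. Changes below are given under the authors' scaling, and a gene list with a median between -0.10 and 0 changes sign under equal totals.

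Genes were sorted into 50 lists by function, which hold 595 of the 1306 called genes. The lists and their members were chosen with earlier results of these data known. A list's share beside that of all genes is therefore a description and not an independent test. The lists with the largest shares of higher members were nucleolar ribosome assembly and RNA polymerases I and III. Those with the largest shares of lower members were the uracil-regulated genes, mitosis and cell separation, the tricarboxylic acid cycle, iron acquisition, S-phase genes and autophagy.

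**Figure D1:**
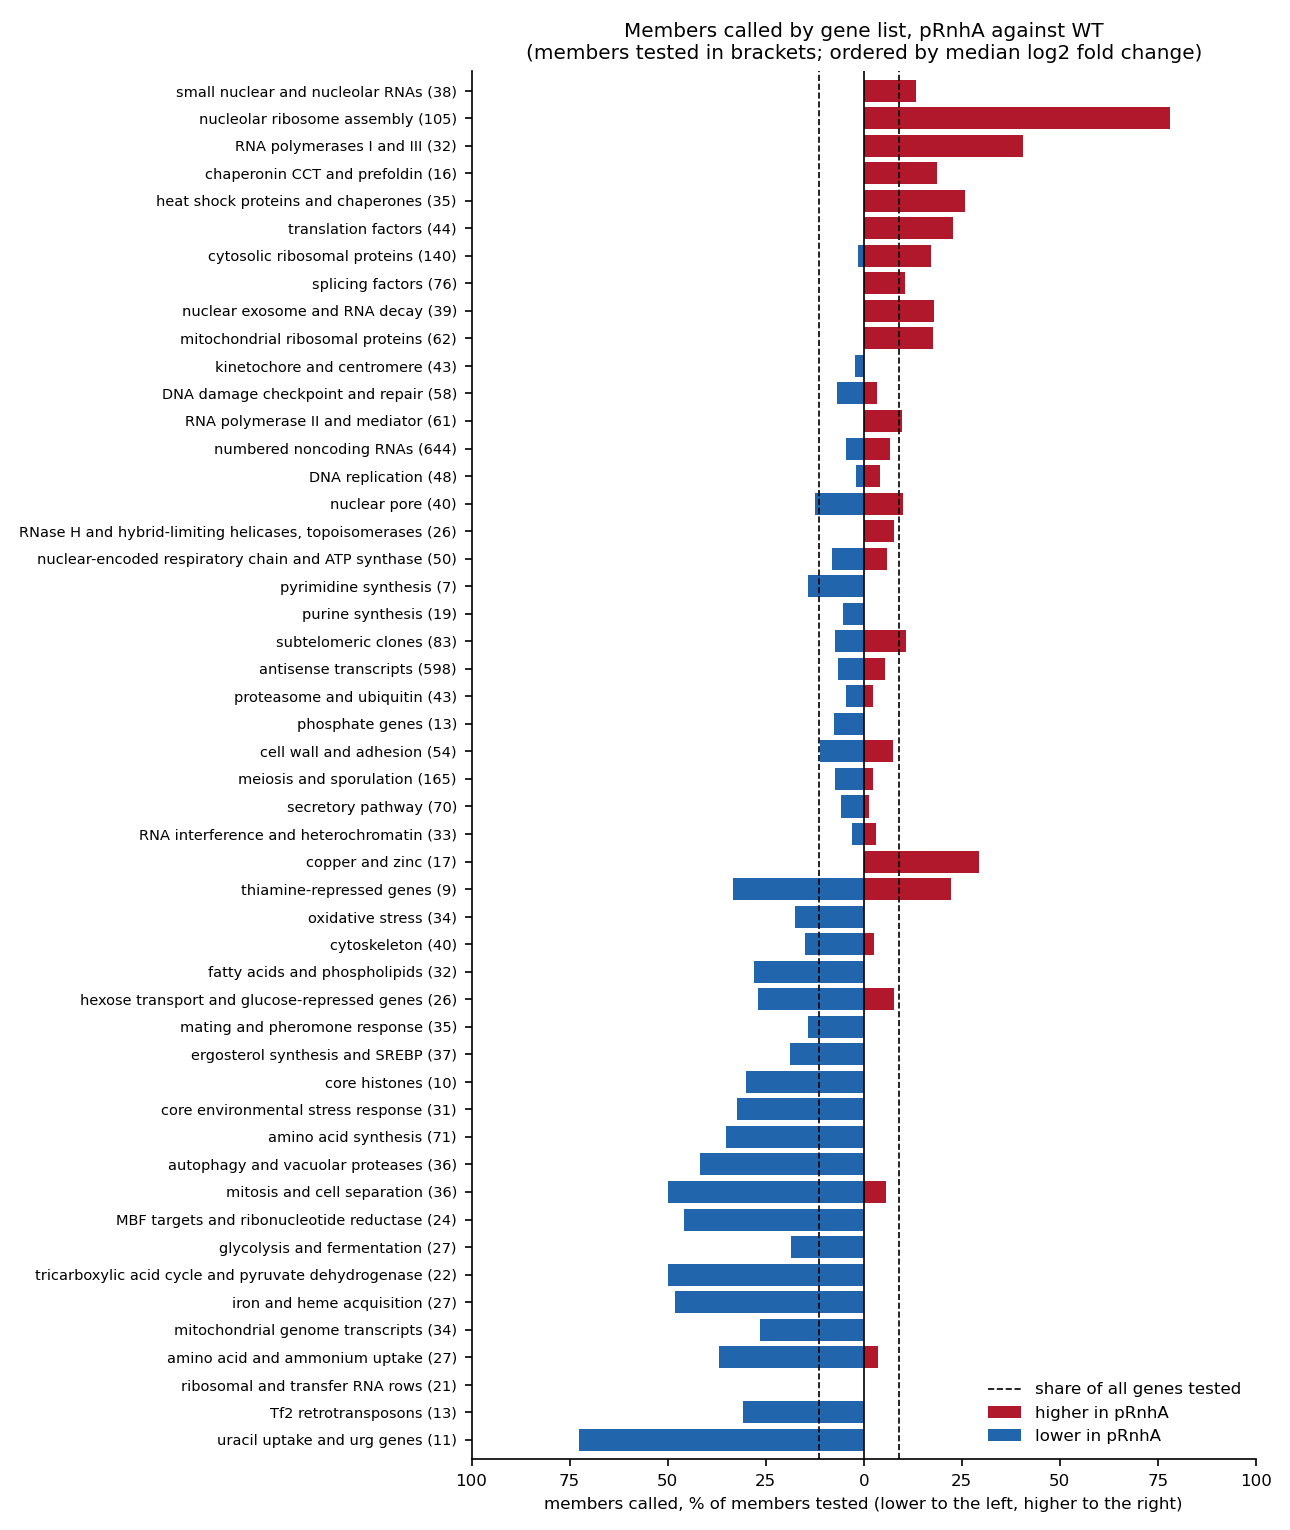
Share of tested members called in pRnhA against WT for each of 50 gene lists (x axis, percent of members tested; red bars to the right are higher in pRnhA, blue bars to the left lower; the number tested is in brackets). Dashed lines mark the shares over all genes tested, 8.88% higher and 11.4% lower; 78.1% of the nucleolar ribosome assembly list were higher and 72.7% of the uracil list were lower.

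Genes for building ribosomes in the nucleolus were higher in pRnhA as a group. Of 105 tested, 82 rose and 0 fell (78.1% against 8.88% of all genes), the median log2 fold change was 0.46 against 0.002 over all tested, and 103 of 105 had a fold change above 0. Averaged over the list, pRnhA libraries stood 0.46, 0.50 and 0.39 above the WT mean, and WT libraries at 0.20, -0.10 and -0.10, so the groups did not overlap. The 2 rnh1Δrnh201Δ libraries stood at 0.38 and 0.36. As a share of each library's total the list took 1.83%, 1.91% and 1.74% in pRnhA, against 1.42%, 1.23% and 1.21% in WT. The number of risen members was 39, 18 and 56 without pRnhA replicates 1, 2 and 3, 97, 37 and 52 without WT replicates 1, 2 and 3, and 69 without either rnh1Δrnh201Δ library, and 18 held in all 8 fits.

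**Figure D2:**
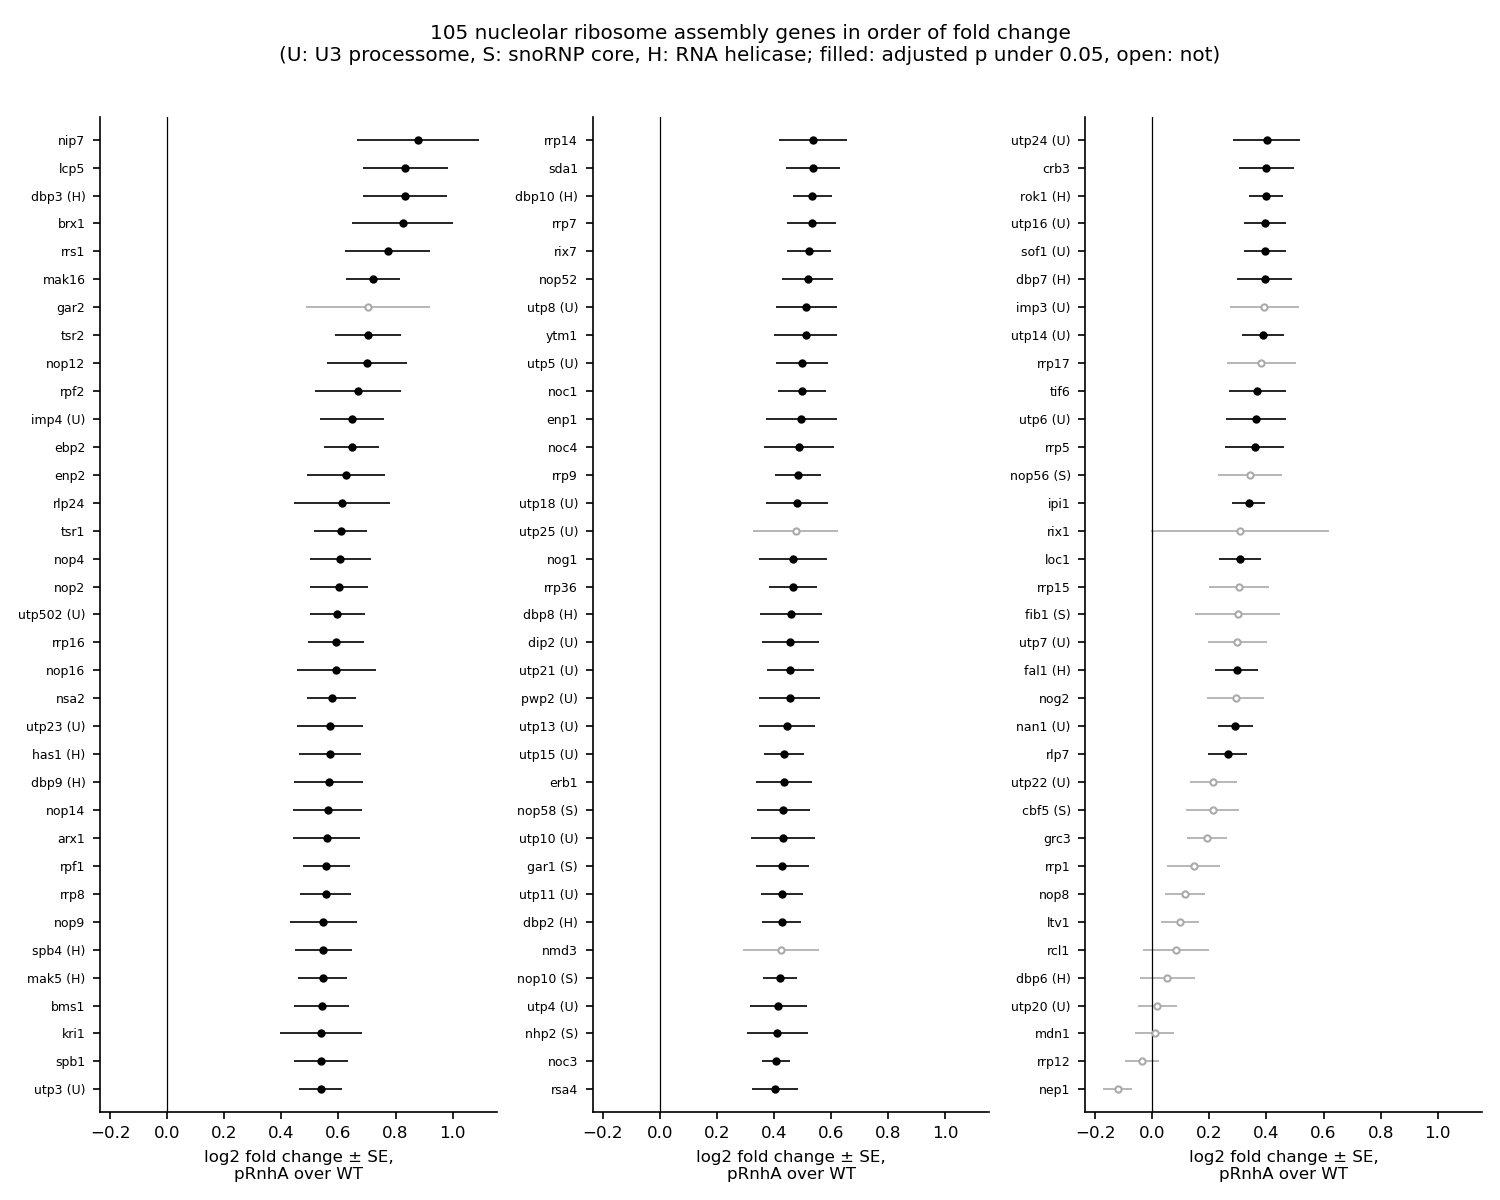
Log2 fold change of pRnhA over WT with its standard error (x axis) for each of the 105 nucleolar ribosome assembly genes, in order of size. Filled points passed an adjusted p of 0.05 and open points did not; 103 of 105 lie above 0, from nip7 at 0.88 to mdn1 at 0.01, with rrp12 at -0.04 and nep1 at -0.12 below.

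Rises were found in several classes of these proteins, and no comparison by stage of assembly was made. Of 26 members of the U3 processome, the particle that cleaves the precursor of the small subunit, 21 rose (median 0.43). Of 12 RNA helicases that remodel preribosomes 11 rose (median 0.50), and of 7 core proteins of small nucleolar ribonucleoproteins, which guide RNA modification, 4 rose (median 0.41). These subgroups were drawn after values had been seen. The largest rise among members that held in all 8 fits was in mak16, a factor of large-subunit assembly, at 820, 850 and 860 in pRnhA, against 580, 470 and 490 in WT (log2 fold change 0.72, SE 0.10, limma adjusted p 0.0049). ebp2, which acts in ribosomal RNA processing, had 2600, 2800 and 2400 in pRnhA, against 1900, 1500 and 1600 in WT (0.65, SE 0.10, limma adjusted p 0.0063). tsr1, needed for the small subunit, had 1600, 1700 and 1500 in pRnhA, against 1200, 960 and 1000 in WT (0.61, SE 0.09, limma adjusted p 0.0066). For these 3 genes every pRnhA library lay above every WT library. The changes of utp502, nsa2, rpf1, rrp8, mak5, utp3 and dbp10, which also held in all 8 fits, were between 0.53 and 0.60. nip7, with the largest fold change of the list (0.88), was called in 1 of the 8 fits, that without WT replicate 1. Some abundant nucleolar proteins did not pass: nop56 had 4700, 4700 and 4300 in pRnhA, against 4300, 3500 and 3100 in WT (0.34, limma adjusted p 0.062). With the replicate number as a block, which compares libraries of the same number, its adjusted p was 0.039.

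Further genes of ribosome assembly, which were not on the list, rose and held in all 8 fits. mis3, annotated in ribosomal RNA processing, had 880, 850 and 820 in pRnhA, against 580, 450 and 420 in WT (log2 fold change 0.83, SE 0.11, limma adjusted p 0.005). rrb1, whose budding yeast relative escorts a ribosomal protein, had 1200 in each pRnhA library, against 880, 650 and 630 in WT (0.75, SE 0.12, limma adjusted p 0.0077). wdr74 had 1200, 1200 and 1300 in pRnhA, against 890, 670 and 730 in WT (0.70, SE 0.10, limma adjusted p 0.0057). trm112, an activator of methyltransferases that act on ribosomal and transfer RNA and on a release factor, had 520, 590 and 490 in pRnhA, against 350, 300 and 300 in WT (0.75, SE 0.10, limma adjusted p 0.005). snu13, a protein bound to small nucleolar RNAs, had 1200, 1200 and 1100 in pRnhA, against 880, 750 and 700 in WT (0.59, SE 0.09, limma adjusted p 0.0062). In each of these genes WT replicate 1 was the highest of the WT libraries. The pRnhA and WT libraries did not overlap, which was a condition for naming mis3, rrb1, wdr74 and trm112.

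The polymerases that transcribe ribosomal and transfer RNA genes moved the same way. Of 32 subunits and initiation factors of RNA polymerases I and III, 13 rose and 0 fell (40.6% against 8.88%, median 0.30). rpc34, a polymerase III subunit, held in all 8 fits with 640, 620 and 640 in pRnhA, against 440, 390 and 430 in WT (log2 fold change 0.59, SE 0.08, limma adjusted p 0.0045). ker1, a polymerase I subunit, had 650, 820 and 810 in pRnhA, against 510, 420 and 500 in WT (0.67, SE 0.11, limma adjusted p 0.0083), and was not called without pRnhA replicate 2. The number of risen members was 4, 1 and 6 without pRnhA replicates 1, 2 and 3, 19, 2 and 5 without WT replicates 1, 2 and 3, and 9 without either rnh1Δrnh201Δ library. Of 216 rows for ribosomal and transfer RNA, the transcripts these enzymes make, 21 were tested, of which 0 passed by limma. The 21 took only 0.04% to 0.11% of each library's total. Whether they follow the output of these enzymes was not tested. At an unadjusted p of 0.05, 0 were higher and 6 lower, and 4 were lower at an adjusted p of 0.05 in the authors' deposited table. The most abundant of these rows, SPRRNA.47 (28S ribosomal RNA), had 690, 610 and 760 in pRnhA, against 900, 1400 and 630 in WT, and the groups overlapped.

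Ribosomal protein genes had a smaller share of calls. Of 140 cytosolic ribosomal protein genes 24 rose and 2 fell (17.1% and 1.43%, median 0.15), and 119 had a fold change above 0. The list means of the libraries overlapped: 0.15, 0.15 and 0.18 in pRnhA and 0.23, -0.05 and -0.18 in WT. Without WT replicate 1, 90 members rose. The counts were 13, 1 and 6 when pRnhA replicates 1, 2 and 3 were left out, 3 and 7 when WT replicates 2 and 3 were, 15 for either rnh1Δrnh201Δ library, and 51 under equal totals. Only rpl3402 rose and only rpl1603 fell in all 8 fits. rpl3402 had 860, 840 and 850 in pRnhA, against 670, 600 and 560 in WT (log2 fold change 0.48, SE 0.07, limma adjusted p 0.0066). rpl1603 had 230, 220 and 270 in pRnhA, against 380, 540 and 550 in WT (-1.01, SE 0.16, limma adjusted p 0.0075). Both belong to families of near-identical paralogs, between which reads may be split. Translation factors had 10 of 44 higher and 0 lower (22.7% higher against 8.88% of all genes). With the replicate number as a block 6 were higher and 1 lower. When 1 library was left out 0 to 30 were higher. The count was 0 without pRnhA replicate 1, pRnhA replicate 2 or WT replicate 2, and 1 without pRnhA replicate 3 or WT replicate 3. It was 3 without either rnh1Δrnh201Δ library and 30 without WT replicate 1. Under equal totals 23 rose. Of 62 mitochondrial ribosomal protein genes 11 rose and 0 fell (17.7% higher against 8.88% of all genes), and 7 rose with the block. The count of risen genes was 19 without WT replicate 1, 0 without pRnhA replicate 1 or 2, and 2 to 5 without each of the others. Under equal totals it was 24.

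Small nucleolar and small nuclear RNAs, the guides and splicing RNAs themselves, had a median log2 fold change of 0.60 over 38 rows. 34 lay above 0, and 5 rose while 0 fell (13.2% against 8.88%). Their list means were 0.31, 0.35 and 0.79 in pRnhA, against -0.17, 0.02 and 0.15 in WT, without overlap. snoR61 held in all 8 fits with 530, 540 and 580 in pRnhA, against 390, 420 and 400 in WT (0.45, SE 0.07, limma adjusted p 0.0066). snu3, the U3 RNA that guides cleavage of the ribosomal RNA precursor, had 150, 180 and 270 in pRnhA, against 84, 130 and 110 in WT (0.86, SE 0.24, limma adjusted p 0.037), and lost its call in each of the 8 fits. The rows are low, at 0.03% to 0.05% of each pRnhA total, and the count of risen rows was 1 without pRnhA replicate 2 and 3 without pRnhA replicate 1 or 3, WT replicate 1 or 2, or either rnh1Δrnh201Δ library, and 8 under equal totals.

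**Figure D3:**
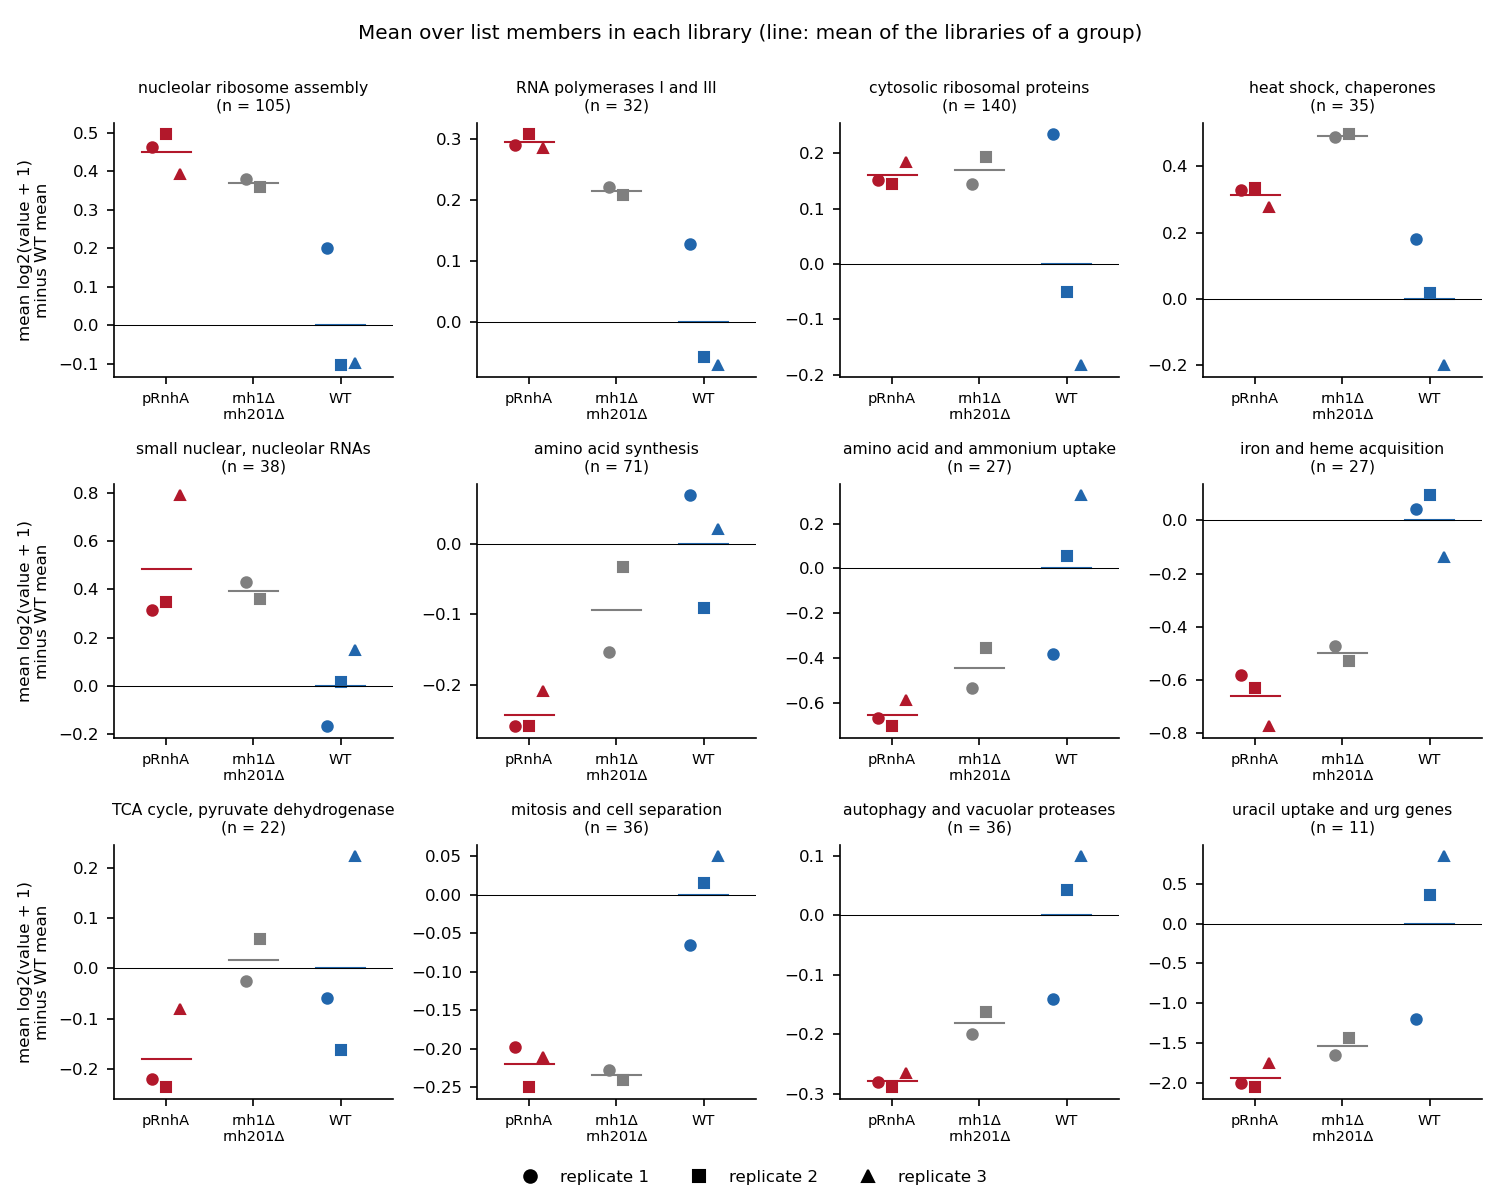
Mean of log2(value + 1) over the members of 12 gene lists in each library, as the difference from the WT mean (y axis), for pRnhA, rnh1Δrnh201Δ and WT libraries from left to right; symbols mark the replicate number and lines the group mean. The pRnhA libraries lie above all WT libraries for nucleolar ribosome assembly (0.39 to 0.50 against -0.10 to 0.20) and below them for iron acquisition (-0.78 to -0.58 against -0.14 to 0.09), and overlap WT for cytosolic ribosomal proteins.

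Other RNA-handling lists held fewer calls. Splicing factors had 8 of 76 higher and 0 lower (10.5% against 8.88%, median 0.15), with 63 of 76 above 0. prp4, a kinase that activates the spliceosome, held in all 8 fits with 940, 910 and 890 in pRnhA, against 670, 640 and 580 in WT (log2 fold change 0.54, SE 0.07, limma adjusted p 0.0042). The nuclear exosome and RNA decay list had 7 of 39 higher (17.9% against 8.88%). Among them was rrp6, an exosome nuclease, with 2000, 2200 and 2000 in pRnhA, against 1800, 1700 and 1600 in WT (0.28, SE 0.06, limma adjusted p 0.021). None of its members held in all 8 fits. RNA polymerase II and Mediator had 6 of 61 higher, a share of 9.84% that is close to the 8.88% of all genes. Of these, rpb6, a subunit shared by all 3 nuclear RNA polymerases, held in all 8 fits, with 1400, 1300 and 1200 in pRnhA, against 1000, 970 and 900 in WT (0.44, SE 0.07, limma adjusted p 0.0078). rrp6 lost its call without pRnhA replicate 1 or 2 or WT replicate 2 or 3. Risen splicing, exosome and polymerase II genes numbered 1, 0 and 1 without pRnhA replicate 1 or 2, 3, 4 and 5 without pRnhA replicate 3, and 22, 17 and 11 without WT replicate 1. They numbered 1, 1 and 1 without WT replicate 2, and 2, 1 and 1 when WT replicate 3 was left out, 6, 3 and 3 without either rnh1Δrnh201Δ library, and 37, 18 and 21 under equal totals.

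Among genes that limit RNA-DNA hybrids (26 RNase H subunits, helicases, topoisomerases and RNA packaging factors) 2 rose and 0 fell, a share of 7.69% that is below that of all genes. One was sen1, a helicase that unwinds hybrids, with 2300, 2300 and 2100 in pRnhA, against 1600, 1300 and 1300 in WT (log2 fold change 0.68, SE 0.09, limma adjusted p 0.005). The call held in all 8 fits, and the groups did not overlap. The other was mex67, an mRNA export receptor, with 1100, 1200 and 1000 in pRnhA, against 900, 830 and 910 in WT (0.32, SE 0.08, limma adjusted p 0.029), which lost its call without pRnhA replicate 1 or 2 or WT replicate 2 or 3. Under equal totals 9 of the 26 rose, and 1 to 6 did when 1 library was left out, 1 without pRnhA replicate 1 or 2 or WT replicate 2 or 3 and 6 without WT replicate 1. Both were also high in rnh1Δrnh201Δ, at 2000 and 1800 for sen1 and 1100 and 1000 for mex67.

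Chaperones rose as well, in cells that had all been at 34 °C. Of 35 heat shock proteins and chaperones 9 rose and 0 fell (25.7% against 8.88% of all genes, median 0.22). The list means were 0.33, 0.34 and 0.28 in pRnhA, against 0.18, 0.02 and -0.20 in WT. In rnh1Δrnh201Δ they were higher than in pRnhA, at 0.49 and 0.50. hsp78, a mitochondrial protein disaggregase, had 2800, 2800 and 2900 in pRnhA, against 1900, 1600 and 1200 in WT (log2 fold change 0.88, SE 0.14, limma adjusted p 0.0078), and held in all 8 fits. hsp104, its cytosolic relative, had 4900, 5000 and 4400 in pRnhA, against 3300, 3200 and 2100 in WT (0.76, SE 0.16, limma adjusted p 0.016), and was not called without pRnhA replicate 1 or 2. ssa1, an Hsp70, had 1600, 1600 and 1700 in pRnhA, against 1200, 1100 and 780 in WT (0.69, SE 0.14, limma adjusted p 0.016). Its call was lost without any one of the pRnhA libraries. In all 3 genes WT replicate 3 was the lowest library. The small heat shock protein genes did not pass: hsp16 was at 0.64 (limma adjusted p 0.17, and 0.044 with the block) and hsp9 at -0.01 (limma adjusted p 0.99). The number of risen chaperones was 1 without pRnhA replicate 1 or 2, 5 without pRnhA replicate 3, 18, 3 and 6 without WT replicates 1, 2 and 3, and 7 without either rnh1Δrnh201Δ library, and 16 under equal totals. The chaperonin CCT with its cofactor prefoldin, which folds actin and tubulin, had 3 of 16 higher (18.8%) and all 16 above 0 (median 0.23), with 0 called without pRnhA replicate 1 or 2, 1 without pRnhA replicate 3 or WT replicate 2 or 3, and 12 without WT replicate 1 or under equal totals.

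Nitrogen metabolism held large falls. car1, arginase, which splits arginine into ornithine and urea, had 590, 580 and 640 in pRnhA, against 1800, 6100 and 6700 in WT (log2 fold change -2.80, SE 0.43, limma adjusted p 0.0068). gdh1, the glutamate dehydrogenase that builds glutamate from ammonium, had 3900, 3700 and 4200 in pRnhA, against 10000, 24000 and 23000 in WT (-2.17, SE 0.29, limma adjusted p 0.005). For these genes WT replicate 1 was well below the other WT libraries but above all of pRnhA. gdh2, the glutamate dehydrogenase that releases ammonium, was tighter, with 1200, 1100 and 1400 in pRnhA, against 3400, 3100 and 3500 in WT (-1.44, SE 0.09, limma adjusted p 0.00038). All 3 held in all 8 fits. The rnh1Δrnh201Δ libraries had 870 and 960 for car1, 4700 and 5300 for gdh1, and 2100 and 2200 for gdh2.

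Of 71 genes for amino acid synthesis 25 fell and 0 rose (35.2% against 11.4%, median -0.19), and 8 held in all 8 fits. The list includes gdh1 and gdh2. Arginine synthesis was the most complete: 8 of 8 members fell (median -0.61), in a subgroup drawn after values had been seen. arg12, argininosuccinate synthase, had 1500, 1500 and 1700 in pRnhA, against 2800, 2900 and 3400 in WT (log2 fold change -0.95, SE 0.09, limma adjusted p 0.0019). arg4, the arginine-specific carbamoyl phosphate synthase, had 5200, 4900 and 5600 in pRnhA, against 9500, 8500 and 11000 in WT (-0.88, SE 0.11, limma adjusted p 0.004). The pRnhA and WT libraries did not overlap in either. arg5 (-0.67) and arg11 (-0.55) also held in all 8 fits, as did arg41, argininosuccinate lyase, which was not on the list (-0.61). Of the other 4, arg3 (-0.54) lost its call without pRnhA replicate 2 and arg1 (-0.36) without pRnhA replicate 1 or 2. arg7 (-1.43) was called in 1 of the 8 fits, that without WT replicate 1, and arg6 (-0.19) in 2, those without WT replicate 1 or 3. arg1 and arg6 were not called under equal totals, and with the block the adjusted p of arg6 was 0.064 by limma. For lysine 3 of 7 fell, led by lys1, an enzyme of the aminoadipate pathway, with 3900, 4000 and 4300 in pRnhA, against 7700, 6700 and 7200 in WT (-0.82, SE 0.08, limma adjusted p 0.0025). For sulfur amino acids 1 of 15 fell, and for aromatic amino acids 3 of 8. The number of fallen members of the whole list was 13, 8 and 18 without pRnhA replicates 1, 2 and 3 and 20 to 25 without each of the other libraries. Without WT replicates 1 and 3, 6 and 1 members rose, and under equal totals 19 fell and 5 rose.

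Genes for the uptake of nitrogen compounds also held falls. Of 27 genes for amino acid and ammonium uptake 10 fell and 1 rose (37% against 11.4% for falls, median -0.41). per1, an amino acid permease, had 440, 410 and 470 in pRnhA, against 2000, 4900 and 6400 in WT (log2 fold change -3.17, SE 0.38, limma adjusted p 0.004), the largest fall of a protein-coding gene that held in all 8 fits. aat1, also a permease, had 3400, 3600 and 3400 in pRnhA, against 5700, 7700 and 7500 in WT (-0.99, SE 0.14, limma adjusted p 0.0053). pgt1, a glutathione transporter, had 2600, 2400 and 2500 in pRnhA, against 3400, 3700 and 3600 in WT (-0.51, SE 0.07, limma adjusted p 0.0048). These 3 held in all 8 fits. isp5 and put4 were lower by -2.70 and -2.32, but each was called in 1 of the 8 fits, that without WT replicate 1, and their WT values ran from 180 to 1900 and from 390 to 2800. The number of fallen members was 4, 3 and 5 without pRnhA replicates 1, 2 and 3, 17 without WT replicate 1, 4 without WT replicate 2 or 3 and 6 without either rnh1Δrnh201Δ library. With equal totals 7 fell and 2 rose.

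The uracil-regulated genes fell with a wider spread. Of 11 genes for uracil use and uptake 8 fell (72.7% against 11.4% of all genes, median -1.09). The list means were -2.0, -2.1 and -1.8 in pRnhA, against -1.2, 0.4 and 0.8 in WT. The rnh1Δrnh201Δ libraries were also low, at -1.6 and -1.4. urg1 and urg2 differed most, at -4.90 and -4.94, but their WT values ran from 1900 to 46000 and from 1200 to 34000, and both lost their calls without pRnhA replicate 1 or 2 or WT replicate 2, and urg2 also without WT replicate 3. Only 2 members held in all 8 fits, the neighbouring transporter genes SPAC1399.01c and SPAC1399.02. SPAC1399.01c had 440, 390 and 480 in pRnhA, against 900, 1200 and 1600 in WT (-1.46, SE 0.19, limma adjusted p 0.0048). SPAC1399.02 had 530, 530 and 580 in pRnhA, against 750, 840 and 880 in WT (-0.59, SE 0.08, limma adjusted p 0.0056). The number of fallen members was 2 without pRnhA replicate 1 or 2 or WT replicate 2, 4 without pRnhA replicate 3 or WT replicate 3, 6 without either rnh1Δrnh201Δ library and 10 without WT replicate 1. Genes that make pyrimidines and purines had 1 of 7 and 1 of 19 lower and 0 higher, and 2 and 3 higher and 0 lower under equal totals. Without WT replicate 1, 8 purine genes rose and 3 fell, and 2 pyrimidine genes rose and 2 fell. Both lone calls were lost without any one pRnhA library or WT replicate 2, and that for purines also without either rnh1Δrnh201Δ library.

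Genes for taking up iron fell together. Of 27 iron and heme genes 13 fell and 0 rose (48.1% against 11.4%, median -0.36), and 8 held in all 8 fits. Their list means were -0.58, -0.63 and -0.78 in pRnhA, against 0.04, 0.09 and -0.14 in WT, and -0.47 and -0.53 in rnh1Δrnh201Δ. The fall lay in uptake (7 of 9) and in siderophore synthesis (3 of 3), the route to ferrichrome, a compound that binds and stores iron. Heme synthesis had 0 of 7 called by limma (median -0.05). At an unadjusted p of 0.05, and in the authors' deposited table, 1 was, hem3, which was higher by 0.47 and had a limma adjusted p of 0.11, and of 0.047 with the block. fip1, the iron permease of the cell surface, had 5200, 4600 and 3700 in pRnhA, against 14000, 12000 and 8200 in WT (log2 fold change -1.32, SE 0.21, limma adjusted p 0.0078). frp2, a ferric reductase, had 230, 190 and 120 in pRnhA, against 990, 960 and 530 in WT (-2.19, SE 0.31, limma adjusted p 0.0059). In both genes replicate 3 was the lowest library of each group, and the groups did not overlap.

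sib2, the first enzyme of ferrichrome synthesis, had 1300, 1200 and 1100 in pRnhA, against 4900, 5600 and 2800 in WT (log2 fold change -1.83, SE 0.24, limma adjusted p 0.0048). sib1, the ferrichrome synthetase, had 5400, 5300 and 4800 in pRnhA, against 13000, 16000 and 10000 in WT (-1.31, SE 0.16, limma adjusted p 0.004). abc3, an ABC transporter of the vacuole, had 3900, 3600 and 3200 in pRnhA, against 6500, 7100 and 6900 in WT (-0.94, SE 0.08, limma adjusted p 0.0015). In all of these the pRnhA libraries lay below every WT library. isu1 (-0.60), the scaffold for iron-sulfur clusters, sib3 (-0.59) and php4 (-0.36), a repressor of iron-using genes when iron is scarce, also held in all 8 fits, while fep1, the repressor of uptake genes when iron is plentiful, was at 0.05 and not called. The mitochondrial iron transporter genes mrs3 (-0.92) and mmt1 (-0.53), which were not on the list, held in all 8 fits too. fio1, a multicopper oxidase, and frp1, a ferric reductase, were lower by -1.06 and -1.83. Both calls were lost without pRnhA replicate 2 or 3 or WT replicate 2, and that of frp1 also without pRnhA replicate 1 or rnh1Δrnh201Δ replicate 2. The number of fallen members was 8 without pRnhA replicate 2 or 3 or WT replicate 2 and 10 to 12 without each of the other libraries. Without WT replicates 1 and 3, 1 and 3 members rose, and under equal totals 11 fell and 1 rose. Of 17 copper and zinc genes 5 rose and 0 fell (29.4% against 8.88%), while 7 lay above 0 and 10 below, and the median of -0.06 turned to 0.05 under equal totals. Those that rose included ctr4, a copper transporter, with 880, 840 and 530 in pRnhA, against 370, 230 and 390 in WT (1.18, SE 0.26, limma adjusted p 0.018). None of these 5 held in all 8 fits, and 0 rose without pRnhA replicate 1, pRnhA replicate 2 or WT replicate 2, 1 without pRnhA replicate 3 and 2 without either rnh1Δrnh201Δ library. Without WT replicate 1 or 3, 4 rose, and 2 and 1 fell.

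**Figure D4:**
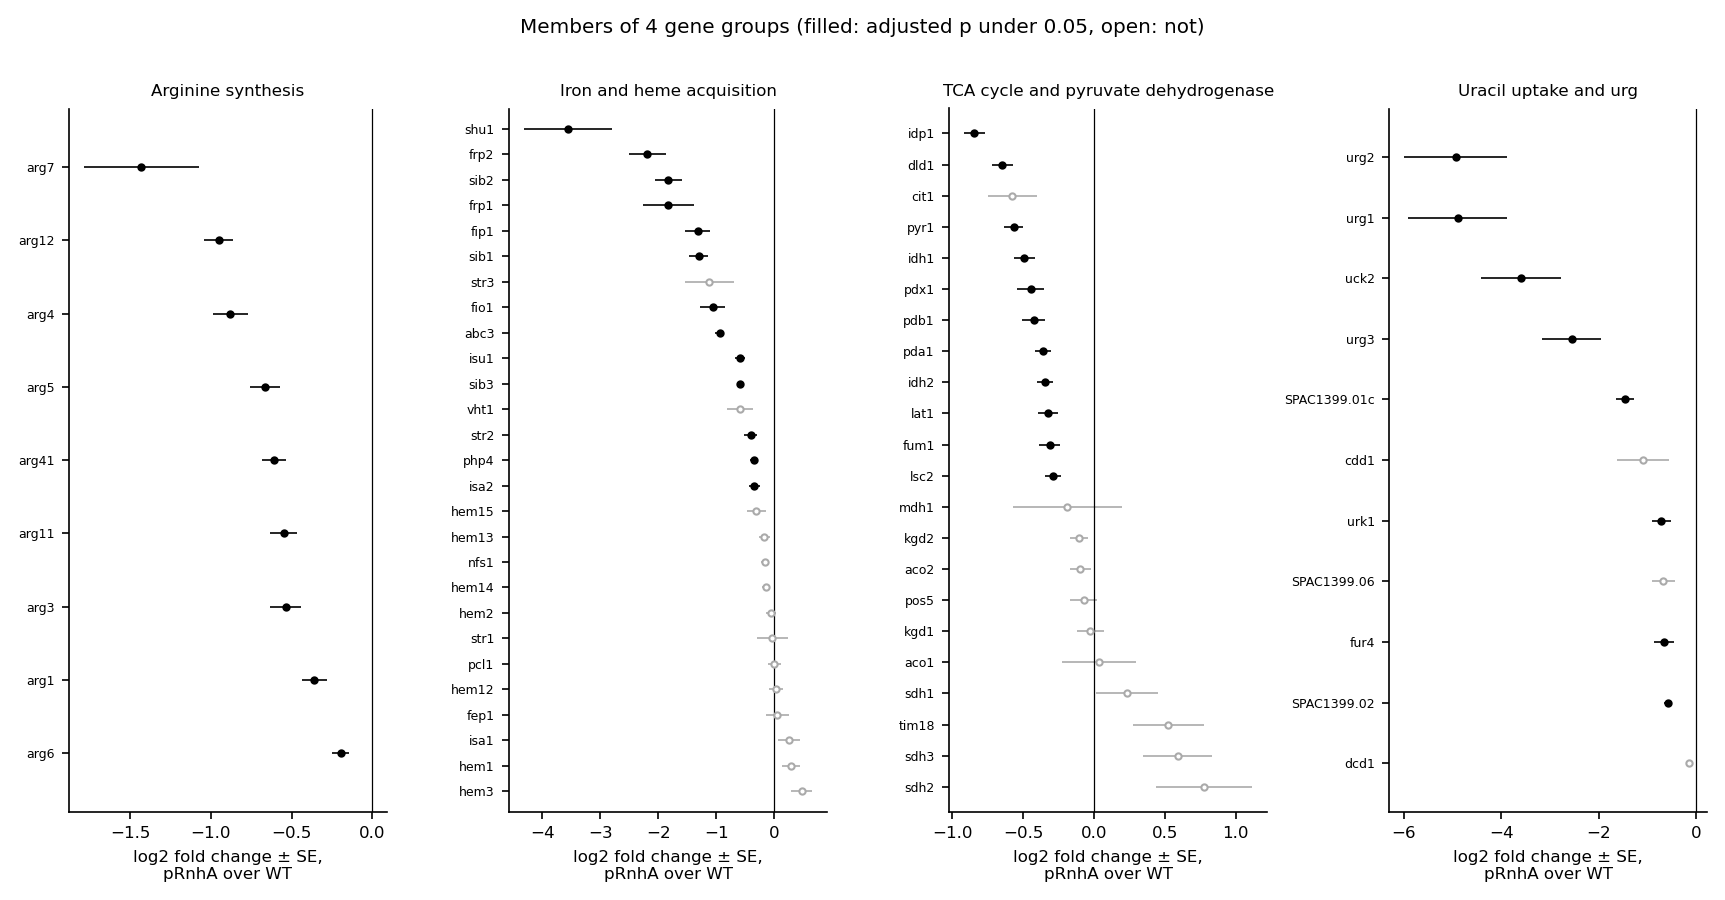
Log2 fold change of pRnhA over WT with its standard error (x axis, scales differ between panels) for the members of 4 gene groups: arginine synthesis (8 members and arg41), iron and heme acquisition, the tricarboxylic acid cycle with pyruvate dehydrogenase, and uracil uptake with the urg genes. Filled points passed an adjusted p of 0.05; in the iron panel the filled points are uptake, siderophore and cluster-assembly genes and php4, while the 7 heme synthesis genes (hem) are open.

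Central carbon metabolism was lower at several steps. Of 22 genes of the tricarboxylic acid cycle and pyruvate dehydrogenase 11 fell and 0 rose (50% against 11.4%, median -0.30), and 6 held in all 8 fits. idp1, an isocitrate dehydrogenase, had 1800, 1600 and 1900 in pRnhA, against 3300, 3200 and 3000 in WT (log2 fold change -0.84, SE 0.07, limma adjusted p 0.0015). dld1, the dehydrogenase subunit shared by pyruvate and oxoglutarate dehydrogenase, had 4600, 5000 and 4700 in pRnhA, against 7000, 7400 and 8000 in WT (-0.65, SE 0.08, limma adjusted p 0.0037). pyr1, pyruvate carboxylase, had 3900, 3800 and 4200 in pRnhA, against 5900, 5800 and 5900 in WT (-0.57, SE 0.07, limma adjusted p 0.0037). The groups did not overlap in these genes. idh1 (-0.49), idh2 (-0.35) and pda1 (-0.36) held in all 8 fits as well. The 4 succinate dehydrogenase subunits stood on the other side of 0 and did not pass: sdh1 was at 0.23, sdh2 at 0.78, sdh3 at 0.59 and tim18 at 0.53. With the block sdh2 and sdh3 had limma adjusted p of 0.03 and 0.037. The list means of the libraries overlapped, at -0.22, -0.24 and -0.08 in pRnhA and -0.06, -0.16 and 0.22 in WT. The number of fallen members was 7 and 6 without pRnhA replicates 1 and 2 and 9 to 12 without each of the other libraries.

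Sugar uptake and the first steps of glucose use also held falls. Of 26 hexose transport and glucose-repressed genes 7 fell and 2 rose (26.9% and 7.69%, against 11.4% and 8.88% of all genes, median -0.11). ght4, a hexose transporter, had 340, 360 and 450 in pRnhA, against 790, 1100 and 1100 in WT (log2 fold change -1.37, SE 0.16, limma adjusted p 0.0037). ght5, the high-affinity glucose transporter, had 3300, 3200 and 3300 in pRnhA, against 5800, 5800 and 5100 in WT (-0.77, SE 0.07, limma adjusted p 0.0015). Both held in all 8 fits with groups that did not overlap. gal7, of galactose use, stood out by rising, with 560, 580 and 620 in pRnhA, against 320, 360 and 300 in WT (0.85, SE 0.09, limma adjusted p 0.0026). The genes fbp1 and inv1, which glucose represses, were at 0.09 and 0.09 and were not called. In glycolysis and fermentation 5 of 27 fell and 0 rose (18.5%, median -0.25). zwf1, which diverts glucose 6-phosphate into the pentose phosphate pathway, had 2500, 2200 and 2600 in pRnhA, against 3800, 3800 and 4000 in WT (-0.67, SE 0.07, limma adjusted p 0.0027). hxk1, a hexokinase, had 3300, 3400 and 3400 in pRnhA, against 4800, 4600 and 4300 in WT (-0.44, SE 0.07, limma adjusted p 0.0066), and pdc201, a pyruvate decarboxylase, fell by 1.19 on the log2 scale. The fallen genes of these 2 lists numbered 3 and 3 without pRnhA replicate 1, the same without pRnhA replicate 2 or WT replicate 2, 4 and 8 without WT replicate 3, and 9 and 7 without WT replicate 1. With equal totals 6 and 4 fell, while 2 and 2 rose.

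Nuclear genes of the respiratory chain and ATP synthase gave few calls. Of 50, 4 fell and 3 rose (8% and 6%), while 1 fell and 13 rose under equal totals. None rose without any one of the pRnhA libraries or WT replicate 2, 1 rose without either rnh1Δrnh201Δ library and 5 without WT replicate 1 or with the block, while 1 fell without pRnhA replicate 1 or 2 and 2 without WT replicate 2. atp1, a subunit of ATP synthase, held in all 8 fits with 4100, 3800 and 4000 in pRnhA, against 5700, 5500 and 5200 in WT (log2 fold change -0.46, SE 0.06, limma adjusted p 0.005). Transcripts of the mitochondrial genome had 9 of 34 lower and 0 higher (26.5% lower against 11.4% of all genes, median -0.40). Of these the transfer RNA rows SPMITTRNAALA.01 (-0.69, SE 0.06) and SPMITTRNAGLN.01 (-0.63, SE 0.07) held in all 8 fits, with limma adjusted p of 0.0018 and 0.0037. SPMITTRNAALA.01 had 370, 350 and 380 in pRnhA, against 580, 600 and 590 in WT. The number of lower rows was 2 without pRnhA replicate 1 or 2 or WT replicate 2, 4 without WT replicate 3 or either rnh1Δrnh201Δ library, 6 without pRnhA replicate 3 and 13 without WT replicate 1, and 5 under equal totals.

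Some genes that make fatty acids were lower. Of 32 genes for fatty acids and phospholipids 9 fell and 0 rose (28.1% against 11.4%), and 12 lay above 0. Under equal totals 5 fell and 4 rose, and the list's median of -0.10 turned to 0.01. cut6, acetyl-CoA carboxylase, had 11000, 11000 and 12000 in pRnhA, against 17000, 16000 and 16000 in WT (log2 fold change -0.53, SE 0.08, limma adjusted p 0.0066). fas2, the alpha subunit of fatty acid synthase, had 12000 in each pRnhA library, against 18000, 17000 and 16000 in WT (-0.50, SE 0.08, limma adjusted p 0.0077). Both held in all 8 fits, as did ned1, a phosphatidate phosphatase (-0.26), which was not called under equal totals. The 2 rnh1Δrnh201Δ libraries had 16000 each for cut6 and 16000 each for fas2. Ergosterol synthesis had 7 of 37 lower and 0 higher (18.9% lower against 11.4% of all genes, median -0.17), none of them in all 8 fits. The count of lower genes was 0 without pRnhA replicate 2, 2 without WT replicate 2 and 4 without pRnhA replicate 1. It was 3 without pRnhA replicate 3 and 6 to 8 without each of the others. The fatty acid count was 4 and 3 without pRnhA replicates 1 and 2, 6 without pRnhA replicate 3, 5 without WT replicate 2 and 7 to 9 without each of the others.

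Many genes expressed around S phase and around mitosis fell, and fewer of them under equal totals. Of 36 genes of mitosis and cell separation 18 fell and 2 rose (50% against 11.4%, median -0.24), and 31 lay below 0, while 5 fell and 3 rose under equal totals. sid2, the kinase that starts septum formation, had 880, 940 and 870 in pRnhA, against 1100, 1200 and 1200 in WT (log2 fold change -0.38, SE 0.06, limma adjusted p 0.0077). pxl1, a paxillin relative of the contractile ring, had 770, 660 and 750 in pRnhA, against 920, 990 and 980 in WT (-0.41, SE 0.07, limma adjusted p 0.01). Only these 2 held in all 8 fits, and their groups did not overlap. Of 24 targets of MBF, the factor that drives S-phase genes, with ribonucleotide reductase, 11 fell and 0 rose (45.8% against 11.4%, median -0.24). msh6, of mismatch repair, had 1300 in each pRnhA library, against 1600, 1600 and 1700 in WT (-0.33, SE 0.05, limma adjusted p 0.0064). mde6 had 180, 150 and 170 in pRnhA, against 240, 300 and 320 in WT (-0.77, SE 0.13, limma adjusted p 0.0081), and these 2 held in all 8 fits. Of 10 core histone genes 3 fell (30% against 11.4%, median -0.18), none in all 8 fits. Relative to the WT mean, histone list means were -0.42 and -0.39 in rnh1Δrnh201Δ, against -0.177, -0.273 and -0.155 in pRnhA. Those of mitosis and cell separation were -0.23 and -0.24 in rnh1Δrnh201Δ, against -0.20, -0.25 and -0.21 in pRnhA. For MBF targets they were -0.094 and -0.125 in rnh1Δrnh201Δ, against -0.29, -0.27 and -0.27 in pRnhA. Fallen genes of mitosis, MBF and histones numbered 4, 4 and 1 without pRnhA replicate 1, 2, 2 and 0 without pRnhA replicate 2, 6, 6 and 2 without pRnhA replicate 3, 21, 16 and 5 without WT replicate 1, 5, 4 and 1 when WT replicate 2 was left out, 12, 6 and 1 without WT replicate 3, 12, 8 and 2 without either rnh1Δrnh201Δ library, and 5, 5 and 1 under equal totals.

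Genes that copy and repair DNA gave few calls, and how many rose depended on the scaling. Of 48 replication genes 2 rose and 1 fell (4.17% and 2.08%, median 0.08), while 18 rose and 0 fell under equal totals. Of 58 checkpoint and repair genes 2 rose and 4 fell (3.45% and 6.9%, median 0.09), while 15 rose and 1 fell under equal totals. Without WT replicate 1, 8 replication and 5 repair genes rose and 2 and 6 fell. Without each of the other libraries 0 or 1 rose of each list, 0 or 1 of the replication genes fell, and 1 to 3 of the repair genes fell. rhp26, a helicase of transcription-coupled repair, rose in all 8 fits with 1100 in each pRnhA library, against 840, 790 and 830 in WT (log2 fold change 0.42, SE 0.07, limma adjusted p 0.0083). Of 43 kinetochore and centromere genes 1 fell and 0 rose, while 10 rose and 1 fell under equal totals, and 3 rose without WT replicate 1. Of 33 genes of RNA interference and heterochromatin 1 rose, chp1 (0.26), and 1 fell, tas3 (-0.24), both of the silencing complex that binds centromeric repeats. The call of chp1 was lost without any one pRnhA library or WT replicate 2. That of tas3 held in the fit without WT replicate 1 and in none of the other 7, and was lost under equal totals and with the block (limma adjusted p 0.075).

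Some genes of the core stress response and of autophagy were lower. Of 31 core stress genes 10 fell and 0 rose (32.3% against 11.4%, median -0.19), and 4 held in all 8 fits. The list's mean in each library, on the log2 scale and relative to each gene's mean over the WT libraries, overlapped between the groups, at -0.19, -0.23 and -0.08 in pRnhA, against -0.12, 0.03 and 0.09 in WT. atf1, the transcription factor of the core response, had 3500, 3300 and 3400 in pRnhA, against 4400, 5000 and 4900 in WT (log2 fold change -0.49, SE 0.07, limma adjusted p 0.005). hri1, a kinase that slows translation under stress, had 510, 480 and 420 in pRnhA, against 680, 910 and 800 in WT (-0.76, SE 0.12, limma adjusted p 0.0075). The others were ntp1, trehalase (-0.47), and cip1, an RNA-binding protein (-0.43). pap1, the transcription factor of the oxidative stress response, had 1400, 1500 and 1500 in pRnhA, against 1900 in each WT library (-0.37, SE 0.05, limma adjusted p 0.0049). The oxidative stress list had 6 of 34 lower and 0 higher (17.6% lower against 11.4% of all genes), with a median of -0.09 that turned to 0.02 under equal totals. Of 36 genes of autophagy and vacuolar proteases 15 fell and 0 rose (41.7% against 11.4%, median -0.22). Among them was atg4, a protease of the autophagy pathway, at 260, 260 and 270 in pRnhA, against 360, 440 and 450 in WT (-0.65, SE 0.10, limma adjusted p 0.0075). The number of fallen stress, oxidative and autophagy genes was 5, 3 and 5 without pRnhA replicate 1, 4, 1 and 2 without pRnhA replicate 2, 7, 6 and 5 without pRnhA replicate 3, 13, 9 and 22 without WT replicate 1, 4, 2 and 2 when WT replicate 2 was left out, 6, 3 and 6 without WT replicate 3, 6, 6 and 10 without either rnh1Δrnh201Δ library, and 4, 2 and 5 under equal totals.

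Genes of mating and meiosis had shares of calls near or below those of all genes, but single members fell. Of 35 mating and pheromone genes 5 fell and 0 rose (14.3% against 11.4%, median -0.17), and 28 lay below 0. mei2, the switch for meiosis, had 2300, 2000 and 3100 in pRnhA, against 3700, 4000 and 4800 in WT (log2 fold change -0.77, SE 0.17, limma adjusted p 0.017), and did not pass without pRnhA replicate 1 or 2 or WT replicate 2 or 3. Without pRnhA replicate 1 or 2 none of the list fell, without WT replicates 2 and 3 there were 1 and 2, and under equal totals 2. ste11, the master factor of mating, was at -0.02 (limma adjusted p 0.88), mei4 at 0.13 (limma adjusted p 0.51) and rec8 at 0.02 (limma adjusted p 0.93), with overlapping libraries. Of 165 meiosis and sporulation genes 12 fell and 4 rose (7.27% and 2.42%), while 7 fell and 10 rose under equal totals. The fallen numbered 4, 5 and 10 without pRnhA replicates 1, 2 and 3, 31, 4 and 8 without WT replicates 1, 2 and 3, and 11 without either rnh1Δrnh201Δ library, and the risen 0 to 5. spn6, a spore septin, led the 4 falls that held in all 8 fits with 41, 38 and 44 in pRnhA, against 110, 94 and 100 in WT (-1.28, SE 0.14, limma adjusted p 0.0027). Another of these was mug135 (-1.26, SE 0.17, limma adjusted p 0.005).

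Noncoding transcripts changed in both directions. Among 644 numbered noncoding RNAs 43 rose and 29 fell (6.68% and 4.5%), and 9 and 6 held in all 8 fits. Under equal totals 63 rose and 20 fell. The risen numbered 14, 10 and 25 without pRnhA replicates 1, 2 and 3, 52, 22 and 37 without WT replicates 1, 2 and 3, and 38 without either rnh1Δrnh201Δ library, and the fallen 10, 6, 12, 53, 8, 12 and 19 in the same order. The changed rows included a pair at the amino acid permease gene per1. SPNCRNA.934 had 110, 80 and 100 in pRnhA, against 16, 10 and 5 in WT (log2 fold change 3.22, SE 0.49, limma adjusted p 0.0068). A row that overlaps it in assembly ASM294v3, SPNCRNA.935, had 960, 900 and 1400 in pRnhA, against 6200, 13000 and 14000 in WT (-3.29, SE 0.38, limma adjusted p 0.0037). The 2 rows thus changed in opposite directions. per1, the neighbouring coding gene, fell by 3.17 on the log2 scale, and rpl1002 on the other side was at -0.002. SPNCRNA.935 is annotated as a possible alternative UTR, so its reads may belong to a coding transcript. SPNCRNA.1319 had 120, 130 and 170 in pRnhA, against 49, 31 and 41 in WT (1.78, SE 0.24, limma adjusted p 0.005), and overlaps ght4, which fell by 1.37 on the log2 scale. SPNCRNA.1255 had 37, 35 and 46 in pRnhA, against 100, 170 and 170 in WT (-1.84, SE 0.23, limma adjusted p 0.0044). SPCC1739.01, next to it, fell by 0.64 on the log2 scale and held in all 8 fits.

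Antisense transcripts also changed in both directions, with 32 of 598 higher and 40 lower (5.35% and 6.69%), and 47 and 30 under equal totals. Without pRnhA replicates 1, 2 and 3 there were 8, 3 and 12 higher and 10, 7 and 21 lower, and without WT replicates 1, 2 and 3 there were 42, 8 and 20 higher and 86, 11 and 17 lower. Of 62 called antisense rows with a tested sense gene, the sense gene was called the opposite way in 13, the same way in 6 and not at all in 43. Over all 534 such pairs 21.2% of sense genes were called. The antisense row of SPBC1652.02 had 310, 320 and 340 in pRnhA, against 810, 1400 and 1300 in WT (SPBC1652.02-antisense-1, log2 fold change -1.81, SE 0.22, limma adjusted p 0.004). SPBC1652.02 itself, an amino acid transporter of the APC family, had 2400, 2300 and 2300 in pRnhA, against 1700, 1400 and 1400 in WT (0.64, SE 0.08, limma adjusted p 0.0048). Both held in all 8 fits and neither overlapped between the groups. utp5-antisense-1 fell by 1.40 on the log2 scale and utp5, a U3 processome gene, was higher by 0.50 (limma adjusted p 0.011), a call lost without pRnhA replicate 2 or WT replicate 2. oac1-antisense-1 rose by 1.42 on that scale while oac1, an anion transporter, was at -0.46 (limma adjusted p 0.018), a call lost without pRnhA replicate 1 or 2 or WT replicate 3. sgt1-antisense-1 (-1.65) and atg1803-antisense-1 (1.69) changed with no call in sgt1 (-0.06) or atg1803 (-0.21). The library kit was directional, but whether counting used strand is not given in the sources used here, so reads of a gene and of its antisense partner cannot be told apart with certainty.

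Repeated sequences gave few firm calls. The 13 rows of the Tf2 retrotransposon all had fold changes below 0 (median -0.78), 4 of them called, and 0 in 7 of the 8 fits, while 13 were called without WT replicate 1 and 13 with the replicate block, and 0 under equal totals. Tf2-12, Tf2-3, Tf2-5 and Tf2-6 had identical values, 17000, 17000 and 19000 in pRnhA, against 23000, 28000 and 48000 in WT, so they are not separate observations. Of 83 genes on clones near the chromosome ends 9 rose and 6 fell (10.8% and 7.23%). Without any one pRnhA library or WT replicate 2, 1 rose and 2 or 3 fell, 12 fell without WT replicate 1, 3 without WT replicate 3 and 2 without either rnh1Δrnh201Δ library. SPAC977.17, a membrane channel gene of the MIP family, had 190, 160 and 260 in pRnhA, against 89, 87 and 99 in WT (log2 fold change 1.11, SE 0.17, limma adjusted p 0.0072). SPBPB10D8.02c, an arylsulfatase gene, had 86, 69 and 98 in pRnhA, against 220, 260 and 390 in WT (-1.74, SE 0.22, limma adjusted p 0.0042). Both held in all 8 fits, and 1 risen and 2 fallen genes of the list did.

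The rnh1Δrnh201Δ values above stand against the same WT libraries as those of pRnhA, so the 2 comparisons with WT are not independent. Set directly against rnh1Δrnh201Δ, pRnhA differed in 23 of 6456 genes (0.356%) by limma, 8 higher and 15 lower, rnh1 and rnh201 among the higher. Of the 203 genes that held in all 8 fits against WT, 18 were called in this direct comparison and in the same direction, 6 higher and 12 lower. The same pRnhA libraries and estimate of spread enter both comparisons, so a shared direction is in part built in. This comparison of lists was chosen after values had been seen. SPBC409.08, annotated as a spermine transporter, was the only gene besides rnh1, rnh201 and SPCC569.05c to pass it in every fit that left out 1 library. SPBC409.08 had 1300 in each pRnhA library, against 630 and 640 in rnh1Δrnh201Δ and 670, 700 and 750 in WT. It was higher than in rnh1Δrnh201Δ by 1.03 (SE 0.07, limma adjusted p 0.00032) and higher than in WT by 0.88 (SE 0.06, limma adjusted p 0.00038). SPCC569.05c, annotated as a spermidine transporter, had 1000, 990 and 1000 in pRnhA, against 1800 and 1700 in rnh1Δrnh201Δ and 2000, 2200 and 2300 in WT. It was lower than in rnh1Δrnh201Δ by -0.81 (SE 0.07, limma adjusted p 0.0028) and lower than in WT by -1.12 (SE 0.06, limma adjusted p 0.00038). The 2 genes of the polyamine transporter families thus moved in opposite directions.

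thf1, the enzyme that interconverts one-carbon forms of tetrahydrofolate, had 6500, 6300 and 6700 in pRnhA, against 13000 and 15000 in rnh1Δrnh201Δ and 19000, 17000 and 16000 in WT. Its direct difference was -1.10 (SE 0.11, limma adjusted p 0.0038), lost without rnh1Δrnh201Δ replicate 2, and its difference from WT was -1.41 (SE 0.09, limma adjusted p 0.00038). The noncoding rows SPNCRNA.504 and prl10 were higher in pRnhA than in either strain. SPNCRNA.504 had 650, 600 and 630 in pRnhA, against 93 and 110 in rnh1Δrnh201Δ and 82, 140 and 150 in WT, and prl10 had 310, 300 and 310 in pRnhA, against 67 and 83 in rnh1Δrnh201Δ and 55, 75 and 96 in WT. gdh2, gal7, plb2, tra1, pdp3 and ams2 were also among the 18. The direct difference of gal7 was 0.89 (SE 0.10, limma adjusted p 0.0061), which was lost without rnh1Δrnh201Δ replicate 2 or pRnhA replicate 2. That of gdh2 was -0.81 (SE 0.10, limma adjusted p 0.019), which was lost without either rnh1Δrnh201Δ library or pRnhA replicate 1 or 2. tra1, the activator-binding subunit of the SAGA coactivator complex, had 3400, 3400 and 3600 in pRnhA, against 4700 and 4800 in rnh1Δrnh201Δ and 4800, 4900 and 4600 in WT, but its direct call held in 2 of the 8 fits, those without WT replicate 1 or 3. The ribosome assembly, iron and arginine genes named above were not called in this direct comparison, which does not show that they are equal in the 2 strains. The direct count was 10, 9 and 22 without pRnhA replicates 1, 2 and 3, 55 and 5 without rnh1Δrnh201Δ replicates 1 and 2, and 93, 16 and 38 without WT replicates 1, 2 and 3.

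**Figure D5:**
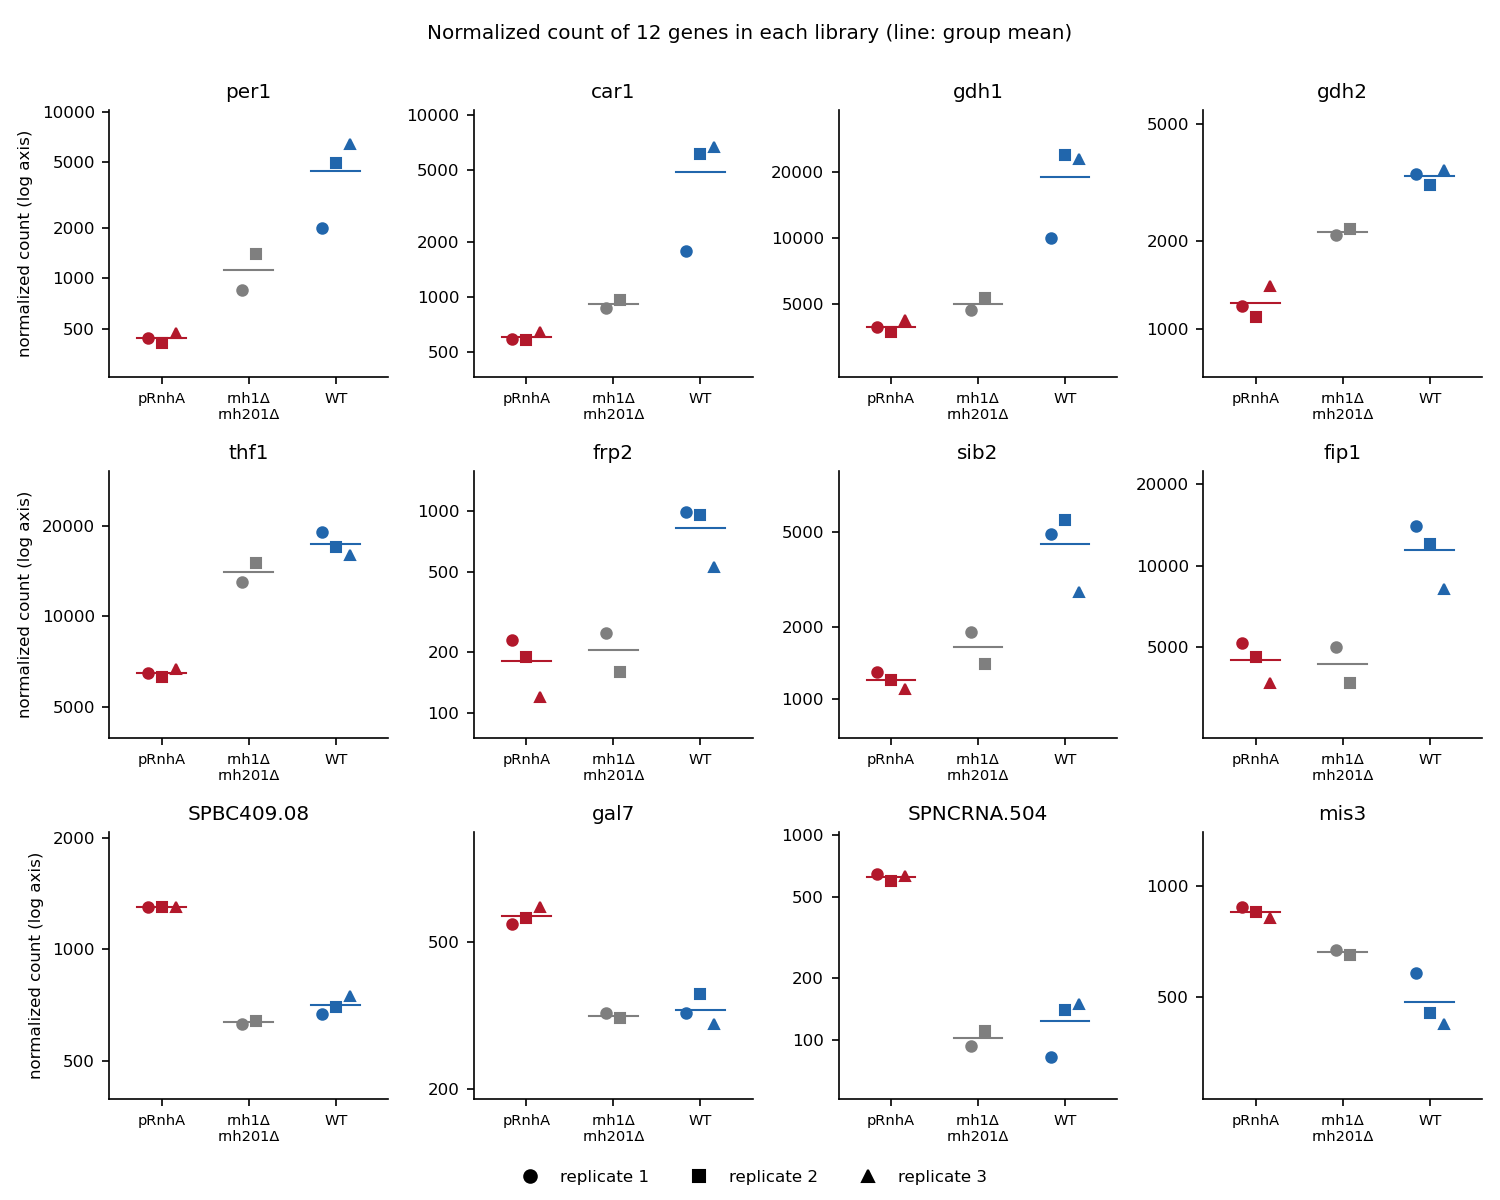
Normalized count of 12 genes in each library (y axis, log scale) for pRnhA, rnh1Δrnh201Δ and WT from left to right; symbols mark the replicate number and lines the arithmetic mean of a group. For per1 the pRnhA libraries lie at 410 to 470, rnh1Δrnh201Δ at 850 and 1400 and WT at 2000 to 6400, while for SPBC409.08 pRnhA lies at 1300, rnh1Δrnh201Δ at 630 and 640 and WT at 670 to 750.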

How the data were processed

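Total RNA was sequenced, and the submitters' processing notes name TopHat2 2.0.5, DESeq2 and the builds ASM294v2 and hg19. The authors deposited 1 table of normalized counts for 8 libraries, treated here as a score because the values are whole numbers with at most 2 significant digits. Raw depth is therefore unknown. The authors also deposited log2 fold changes and adjusted p-values, per the file headers, without naming the reference, and these served only as an alternative.

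Values were taken as log2(value + 1), rows with a mean of 1 or more were kept, and limma 3.58.1 in R 4.3.3 was fitted to all 8 libraries with 5 residual degrees of freedom. Raw counts had been allowed for, but the values are normalized, so no count model was used. P-values are two-sided and Benjamini-Hochberg adjusted over all 6456 genes, with a threshold of 0.05. Fold changes on this scale understate low genes. The code was tested on simulated data. Names, products and neighbours came from assembly ASM294v3, to which 6224 of 7016 identifiers matched.

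The 50 lists and the members were chosen with earlier results of these data known. Among genes called in all fits that left out 1 library, with a mean of 20 or more in the higher group and no overlap, the 12 protein-coding genes with the largest change and 5 noncoding rows in each direction could be named, with up to 4 called members per list. Other genes, the subgroups and the comparison with rnh1Δrnh201Δ were chosen after values were seen. Deviations from the group means correlated at 0.174, 0.159 and 0.35 between pRnhA and WT libraries of the same number, so the labels' numbers were taken to pair the samples in the block. The value of 0.35 is that of the replicates 3, the only P-type libraries of these groups. Pairing and shared mating type cannot be told apart there. The block also joins rnh1Δrnh201Δ replicate 1, of the P type, with M-type libraries. Alternatives covered scaling, pseudocount, filter, block, mating type, the libraries fitted, and leaving out each library.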

Additional observations from a re-analysis of the deposited data

How the results depend on the processing

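The count of 1306 called genes stayed within 1.5 times under equal library totals, pseudocounts of 0.5 and 5, no filter, a mean of 20 or more, a mating-type term and a fit of pRnhA and WT alone (917 to 1634). With the replicate block it was 1287, of which 1139 were called in the same direction as without it. It was 1960 in the authors' deposited table, 212 to 2173 when 1 library was left out, and 0 by limma in mat1-Mc libraries alone (an alternative added after seeing the data), where 1509 genes had an unadjusted p under 0.05. The 23 genes called directly against rnh1Δrnh201Δ became 35 with no filter, 20 with the block, and 5 to 93 when 1 library was left out. A change of sign was counted as a reversal only where the gene was called in either of the fits compared. Of 268 named genes, none reversed in this sense under any of these. The block ended 10 calls and made 5 among them, equal totals ended 33, no filter 41, and leaving out pRnhA replicate 2 ended 120. In the mat1-Mc libraries alone 245 were lost. That fit had fewer libraries and so fewer residual degrees of freedom than the main fit. Its lost calls cannot separate mating type from lost power. A mating-type term over all 8 libraries gave 1319 calls. Values with 2 significant digits limit the precision of each library, and counting error cannot be given without the raw depth.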

Other observations

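Several genes not named above held in all 8 fits. ppk18, a kinase of the Greatwall family that acts when nutrients run short, had 2600, 2500 and 2700 in pRnhA, against 3700, 4100 and 5000 in WT (log2 fold change -0.70, SE 0.10, limma adjusted p 0.0061). igo1, the phosphatase inhibitor that Greatwall kinases activate and a member of the meiosis and sporulation list, had 550, 580 and 630 in pRnhA, against 810, 850 and 860 in WT (-0.52, SE 0.07, limma adjusted p 0.0048). Both were lower in every pRnhA library than in every WT library. alr2, alanine racemase, had 1100, 1100 and 1300 in pRnhA, against 2300, 4100 and 3800 in WT (-1.50, SE 0.23, limma adjusted p 0.007). snz1, an enzyme of vitamin B6 synthesis, had 6200, 6100 and 6500 in pRnhA, against 8700, 10000 and 11000 in WT (-0.65, SE 0.10, limma adjusted p 0.0068). por1, the channel of the mitochondrial outer membrane, had 2900, 2700 and 2700 in pRnhA, against 4200, 4000 and 3900 in WT (-0.54, SE 0.06, limma adjusted p 0.0027). set7, a histone methyltransferase, rose instead, with 300, 310 and 330 in pRnhA, against 220, 180 and 190 in WT (0.67, SE 0.10, limma adjusted p 0.0059). gnr1, a G protein beta subunit, had 240, 260 and 200 in pRnhA, against 150, 120 and 130 in WT (0.80, SE 0.13, limma adjusted p 0.0084).

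The remaining lists had shares of calls near or below those of all genes, or few members. Cell wall and adhesion had 4 of 54 higher and 6 lower, which became 11 and 3 under equal totals. Its members gas2, which remodels beta-glucan, and exg3, a glucanase, held in all 8 fits in opposite directions. gas2 had 9600, 8900 and 8800 in pRnhA, against 6600, 5900 and 5200 in WT (0.63, SE 0.09, limma adjusted p 0.0062), and exg3 had 920, 920 and 890 in pRnhA, against 1400, 1700 and 1400 in WT (-0.71, SE 0.09, limma adjusted p 0.0048). The secretory pathway had 1 of 70 higher and 4 lower (10 and 1 under equal totals), the nuclear pore 4 of 40 and 5 (15 and 2), the cytoskeleton 1 of 40 and 6 (1 and 1), and the proteasome with ubiquitin 1 of 43 and 2 (5 and 0). Thiamine-repressed genes had 2 of 9 higher and 3 lower (3 and 1 under equal totals), and phosphate genes 0 of 13 and 1 (2 and 1).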
